A study of Homo sapiens with 4 samples.

Results

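The MIR548 genes form a large family of human microRNA genes. The results below concern every probe set that the array annotation assigns to exactly 1 gene symbol beginning with MIR548. There were 58 such probe sets for 42 genes, out of 22411 genes measured, and for each gene the probe set with the highest mean over the 4 arrays was kept. The probe sets were thus chosen by their mean level, and the family was selected with its lower values on the PRSS8 arrays already known. The differences between PRSS8 and control are therefore descriptions, with no test of the family, and the shares over all genes are printed beside its counts as background only.

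HCT116, a human colon cancer cell line, was grown in MEM medium. The cells had been transiently transfected with a PRSS8 expression plasmid or with the vector control, so all 4 arrays came from transfected cells of 1 line. PRSS8 encodes prostasin, a membrane-anchored serine protease of epithelia. There were 2 control arrays and 2 PRSS8 arrays, numbered replicate 1 and replicate 2 in each group and called biological by the labels. The labels do not say whether the numbers stand for separate cultures on separate days.

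A microRNA gene is transcribed as a long primary transcript that folds into a hairpin. The nuclear enzyme DROSHA releases the hairpin and the cytoplasmic enzyme DICER1 trims it to a short mature microRNA, which guides Argonaute proteins to messenger RNAs that pair with its seed (bases 2 to 8). The MIR548 genes derive from short inverted-repeat transposable elements of the MADE1 kind. Such elements lie in many copies across human chromosomes, and both arms of a hairpin made from one are near-complements of each other. The arrays were made from total RNA, and the deposited values do not separate a mature microRNA from its hairpin or from a longer transcript that contains the same sequence.

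Mature sequences were taken from RefSeq (build GRCh38.p14), where 27 of the 42 genes had an entry, with 26 distinct mature sequences and 20 distinct seeds among them. The sequences below belong to the genes with the largest decreases and to the genes that share a mature sequence with them, and they are written 5′ to 3′ with the seed in capitals.
miR-548ai: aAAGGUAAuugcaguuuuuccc
miR-548aj-5p: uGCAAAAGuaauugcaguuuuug
miR-548g-5p: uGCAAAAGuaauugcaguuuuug
miR-548x-5p: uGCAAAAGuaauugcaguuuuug
miR-548f-5p: uGCAAAAGuaaucacaguuuuu
miR-548aj-3p: uAAAAACUgcaauuacuuuua
miR-548x-3p: uAAAAACUgcaauuacuuuc
miR-548g-3p: aAAACUGUaauuacuuuuguac
miR-548f-3p: aAAAACUGuaauuacuuuu
miR-548ad-3p: gAAAACGAcaaugacuuuugca
miR-548q: gCUGGUGCaaaaguaauggcgg

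In GRCh38.p14, miR-548ai lies at chr6:99124624-99124645 on the plus strand and miR-548ad-3p at chr2:35471453-35471474 on the plus strand. The other sequences lie on minus strands. The arms of MIR548AJ2 lie at chrX:38023949-38023971 (5p) and chrX:38023912-38023932 (3p), those of MIR548G at chr4:147344681-147344703 and chr4:147344643-147344664, and those of MIR548X at chr21:18686135-18686157 and chr21:18686100-18686119. The arms of MIR548F1 lie at chr10:54607926-54607947 (5p) and chr10:54607889-54607907 (3p), inside the span of PCDH15 on the same strand, and miR-548q lies at chr10:12725325-12725346.

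MIR548AJ2, MIR548G and MIR548X, on 3 chromosomes, had the same 5p sequence of 23 bases, and MIR548F1 had the same 5p seed. The 5 genes MIR548F1 to MIR548F5 had 1 common 3p sequence of 19 bases. In MIR548AJ2 the 5p arm matched the reverse complement of its own 3p arm over a run of 19 bases. The letters AGUAAUU or their reverse complement AAUUACU occurred in 9 of the 26 distinct member sequences (34.6%) and in 4 of the 2299 distinct mature sequences of other microRNA genes (0.174%). The median GC content was 36.4% in the members (range 15.8% to 54.5%) and 52.2% in the other microRNAs. These letters stand in member sequences printed above, with no rule stated for their choice, so the shares are a description and no test. A match of these letters describes the sequence and says nothing of which transcripts a probe set detected.

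Arrays of the same replicate number were more alike than arrays of the same group. Control and PRSS8 correlated across genes at 0.996 within replicate 1 and at 0.989 within replicate 2 (Pearson's r), while both controls correlated at 0.930 and both PRSS8 arrays at 0.934. PRSS8 itself stood at 10.45 and 11.18 on the control arrays and at 18.55 and 18.07 on the PRSS8 arrays (log2, replicates 1 and 2), so the plasmid gene matched the labels. Of 8 colon epithelial markers 6 had a mean level of at least 6, and VIL1 and CDH17 did not. None of the 10 measured markers of fibroblasts, blood cells and endothelium did, with levels of at most 4.02. In limma, 0 of 22411 genes passed an adjusted p under 0.05, and 42 had an unadjusted p under 0.05 (17 higher, 25 lower). Even the plasmid gene, with a difference of 7.49 (SE 0.57), was not called at the adjusted threshold. The absence of calls therefore does not show that genes were unchanged. In such bulk RNA, fewer cells with a transcript and less of it per cell cannot be told apart. With 2 arrays a group an exact permutation test cannot give a p below 0.333.

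The identity of the probe sets was checked through their numbering, after the values had been seen. The identifier of a probe set begins with a chromosome number, and over the 20540 probe sets for which it could be set against the RefSeq chromosome of the annotated gene, the chromosomes were the same for 99.7%. For other microRNA genes the share was 99.3% (1002 of 1009). For MIR548 probe sets it was 56.9% (33 of 58), and these made up 25 of the 61 mismatched probe sets of the whole annotation (41.0%). MIR548AI, for example, is a gene of chromosome 6 whose only probe set carries the number of chromosome 14, and MIR548AJ2, a gene of the X chromosome, was represented by a probe set numbered on chromosome 4. The symbols below are those of the annotation, and for the mismatched probe sets the data do not show that the named gene was the source of the signal.

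Probe sets of the mismatched kind were the bright ones. A level is the signal of a probe set's own probes and does not rank transcripts by abundance, but the 2 kinds of probe set hardly shared a range. The 33 probe sets numbered on the gene's own chromosome had a median level of 4.24, close to the median of 3.74 over all gene-level probe sets, and all but MIR548AD stood at 5.59 or below. The 25 probe sets numbered on another chromosome had a median level of 10.53 and a range of 5.06 to 19.27. In all, 23 of the 42 genes were represented by a probe set numbered elsewhere. For 14 of them the brightest probe set was taken over one on the own chromosome, and the other 9 had none on the own chromosome. These 23 lay at 5.67 or above, and 18 of the 19 others lay at 5.59 or below. Of the 14 genes at a level of 10 or more, 13 were of the mismatched kind.

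**Figure D1:**
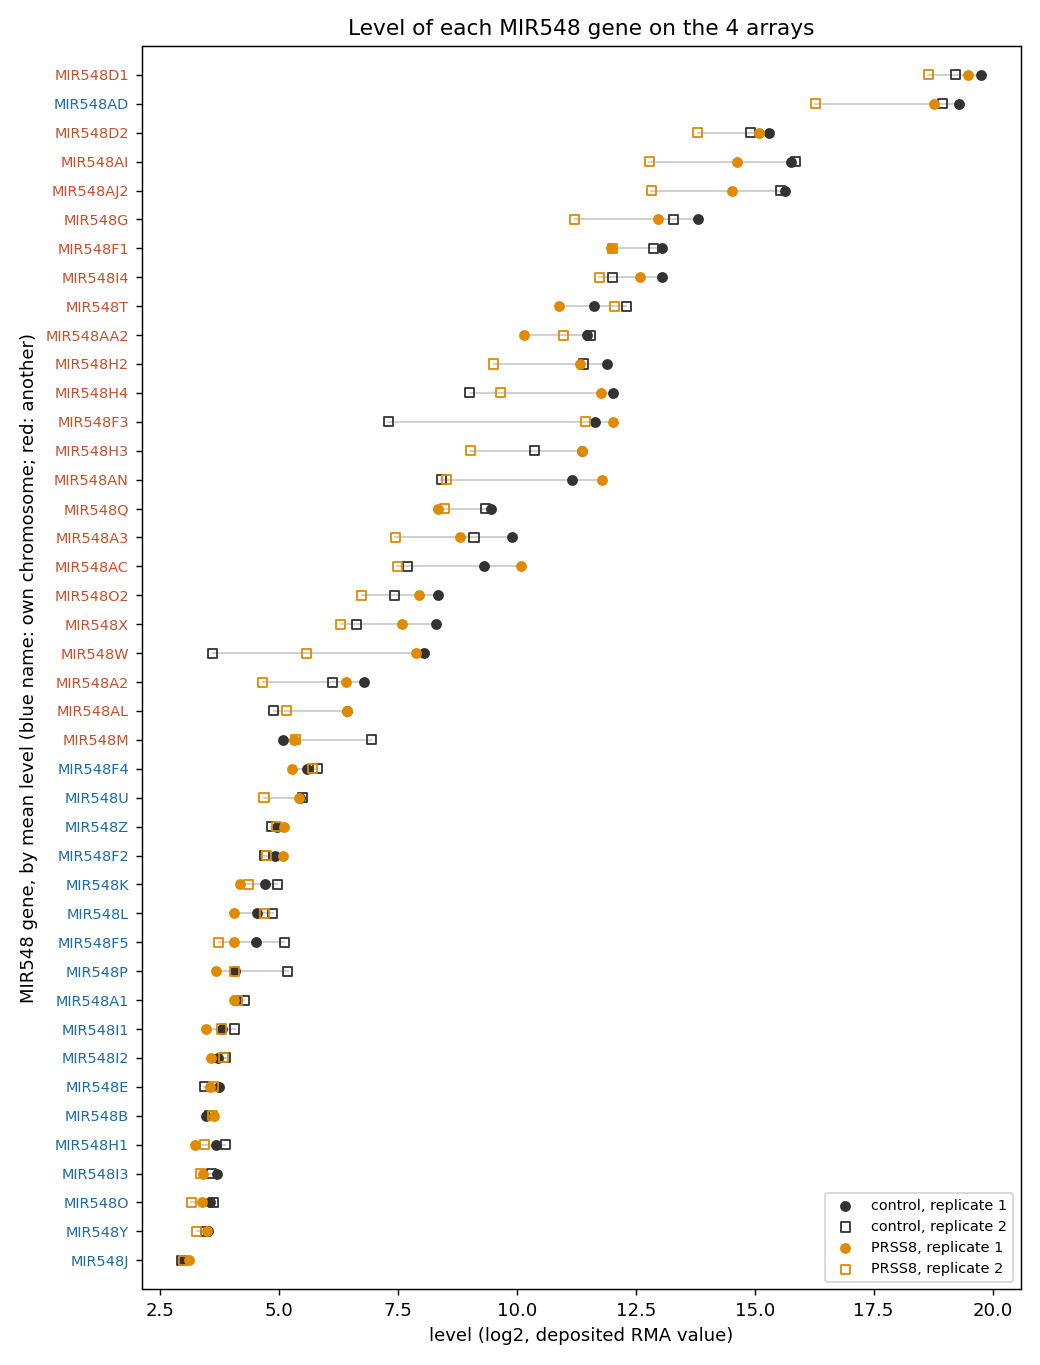
Level (log2) of the kept probe set of each of the 42 MIR548 genes on the 4 arrays, sorted by mean level. Dark symbols are control and orange symbols PRSS8 arrays, filled circles replicate 1 and open squares replicate 2, and a line spans the 4 values. Red names, for probe sets numbered on another chromosome than the gene, fill the upper part of the plot, and blue names, apart from MIR548AD, lie below 5.6.

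In most of the 42 genes, each PRSS8 array stood below the control array of the same replicate number. The median difference, PRSS8 minus control, was -0.42 on the log2 scale, against 0.0006 over all genes and -0.03 over 1014 other microRNA genes. Within replicate 1 it was -0.31 and within replicate 2 it was -0.38. It was -0.17 when PRSS8 replicate 2 was left out. Lower within both replicate numbers were 29 of the 42 genes (69.0%), a pattern seen in 24.5% of all genes, and 6 were higher within both, against 26.0%. Both PRSS8 arrays stood below both control arrays in 16 genes (38.1%), where 5.56% of all genes did so. That count was 27 without control replicate 2 and 25 without PRSS8 replicate 1, when fewer arrays had to be in order. Both PRSS8 arrays stood above both controls in MIR548B and MIR548J, where 5.53% of all genes did so.

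At least 1.5-fold lower within both replicate numbers (0.156% of all genes) were 6 genes, MIR548AI, MIR548AJ2, MIR548G, MIR548F1, MIR548Q and MIR548A3. No MIR548 gene was 1.5-fold higher within both, where 0.46% of all genes were. Brighter genes passed these limits more often. At a level of 6 or more, 27 of 5788 genes were lower in this way and 96 higher, and 6 of 21 MIR548 genes were lower. At 10 or more, 14 of 860 genes were lower and 29 higher, and 4 of 14 MIR548 genes were lower. All 6 genes named here were represented by a probe set numbered on another chromosome. Of the 8 genes in the whole table whose PRSS8 arrays both lay at least 1.5-fold below both control arrays (0.0357%), 4 were MIR548AI, MIR548AJ2, MIR548F1 and MIR548Q. MIR548AI and MIR548AJ2 had similar values on all 4 arrays, and whether their probe sets detect separate transcripts was not tested.

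MIR548AI had the largest decrease of the family. It stood at 15.76 and 15.85 on the control arrays and at 14.63 and 12.78 on the PRSS8 arrays (replicates 1 and 2). The control arrays lay close together and both PRSS8 arrays lay below them, the second much further than the first. The difference was -2.09 (SE 0.77), 4.27-fold, with -1.12 within replicate 1 and -3.07 within replicate 2.

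MIR548AJ2 followed it closely, at 15.63 and 15.53 on the control arrays and 14.52 and 12.83 on the PRSS8 arrays, a difference of -1.91 (SE 0.74). MIR548G, with the same 5p sequence as MIR548AJ2, stood at 13.80 and 13.30 against 12.97 and 11.22 (-1.45, SE 0.88). In both genes the groups did not overlap and the array of PRSS8 replicate 2 was the lowest. MIR548X, the remaining gene with that 5p sequence, stood at 8.29 and 6.63 against 7.58 and 6.30. Its groups overlapped, since the arrays of replicate 2 were the lower ones in each group. All 4 genes with the GCAAAAG seed, these 3 and MIR548F1, were lower within both replicate numbers, against 69.0% of the family and 24.5% of all genes. Their kept probe sets were all numbered on another chromosome. The own-chromosome probe set was higher within both numbers for MIR548G (0.0005 and 0.79) and mixed for MIR548AJ2 (-0.43 and 0.10). For MIR548F1 it was lower within both (-0.59 and -0.34), and MIR548X had none.

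Among the 6 genes at least 1.5-fold lower within both numbers, MIR548F1 and MIR548Q had the most similar decreases within replicate 1 and replicate 2. MIR548F1 stood at 13.05 and 12.88 on the control arrays and at 11.99 and 12.01 on the PRSS8 arrays, or 12.96 ± 0.12 against 12.00 ± 0.02 (SD, n = 2 each), a difference of -0.96 (SE 0.68). MIR548Q stood at 9.46 and 9.34 against 8.33 and 8.49, a difference of -0.99 (SE 0.65). In both genes the arrays of a group lay close together and the groups did not overlap. The SE is larger than that spread, since limma moderates each gene's variance towards that of all genes at its level.

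MIR548A3 and MIR548H2 were lower with more spread. MIR548A3 stood at 9.89 and 9.10 on the control arrays and 8.81 and 7.44 on the PRSS8 arrays (-1.37, SE 0.82), and MIR548H2 at 11.90 and 11.39 against 11.32 and 9.51 (-1.23, SE 0.96). The groups did not overlap in either gene, but in MIR548H2 control replicate 2 and PRSS8 replicate 1 lay almost level. Without PRSS8 replicate 2 the differences were -1.17 for MIR548AI, -1.06 for MIR548AJ2, -0.58 for MIR548G, -0.69 for MIR548A3 and -0.32 for MIR548H2, all smaller than with it.

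MIR548AD was the only bright gene whose probe set carried the number of the gene's own chromosome, chromosome 2. It stood at 19.30 and 18.96 on the control arrays and at 18.76 and 16.27 on the PRSS8 arrays. The difference of -1.61 (SE 0.84) rested on PRSS8 replicate 2, and without that array it was -0.37. The highest value of any probe set was 19.93 on each replicate 1 array, 19.44 on control replicate 2 and 19.46 on PRSS8 replicate 2, and many probe sets shared it.

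MIR548D1, the brightest gene, lay near that highest value at 19.75 and 19.22 against 19.48 and 18.65 (-0.42, SE 0.35). MIR548D2 stood at 15.29 and 14.91 against 15.10 and 13.81 (-0.65, SE 0.65), and MIR548I4 at 13.05 and 12.00 against 12.59 and 11.73 (-0.36, SE 0.82). All 3 were lower within both replicate numbers, and in all 3 the groups overlapped. Without PRSS8 replicate 2 the difference was -0.007 for MIR548D1, -0.0066 for MIR548D2 and 0.06 for MIR548I4, and without control replicate 1 that of MIR548I4 was 0.16.

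The genes with the most positive differences had 1 or both replicate 2 arrays low. MIR548F3 stood at 11.64 and 7.30 on the control arrays and at 12.02 and 11.45 on the PRSS8 arrays. Control replicate 2 lay far below the other arrays, and the difference of 2.27 (SE 1.60) was 0.10 without it. MIR548W stood at 8.04 and 3.61 against 7.89 and 5.57 (0.91, SE 1.65), with both replicate 2 arrays low. MIR548AN stood at 11.15 and 8.41 against 11.79 and 8.51 (0.37, SE 1.56), MIR548AC at 9.32 and 7.71 against 10.08 and 7.48 (0.27, SE 1.17) and MIR548H4 at 12.02 and 9.01 against 11.77 and 9.66 (0.20, SE 1.40). In each of these 3 genes both replicate 2 arrays lay below both replicate 1 arrays, and the groups overlapped. MIR548AL, at a lower level, stood at 6.42 and 4.89 against 6.42 and 5.15 (0.13, SE 0.70), with the same split by number. Of these genes MIR548AN was higher within both replicate numbers (0.64 and 0.10), while MIR548W, MIR548AC, MIR548H4 and MIR548AL had opposite signs within them. Without control replicate 2 the differences of MIR548W, MIR548AN, MIR548AC, MIR548H4 and MIR548AL were all negative. They were -1.31 for MIR548W, -0.54 for MIR548AC, -1.30 for MIR548H4 and -0.64 for MIR548AL. Without control replicate 1 they were all positive, at 3.12, 1.74, 1.07, 1.71 and 0.89 in the order named. Both replicate 2 arrays were low in these genes, so the sign followed the control array left out and does not describe PRSS8.

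The other bright genes had probe sets numbered elsewhere. MIR548AA2 stood at 11.47 and 11.54 on the control arrays and at 10.16 and 10.98 on the PRSS8 arrays (-0.94, SE 0.79), so its groups did not overlap and the larger drop was within replicate 1. MIR548T stood at 11.61 and 12.30 against 10.89 and 12.04 (-0.49, SE 0.84), lower within both numbers but with overlapping groups. MIR548H3 stood at 11.36 and 10.36 against 11.38 and 9.02 (-0.67, SE 1.11), nearly level within replicate 1 and lower within replicate 2. At lower levels MIR548O2 and MIR548A2 were lower within both numbers, by -0.54 and -0.91, and MIR548M, at 5.08 and 6.93 against 5.32 and 5.35, was lower within replicate 2 alone.

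The kept probe sets of genes that share a mature sequence differed in level and in the size of their differences. MIR548AJ2, MIR548G and MIR548X, with 1 common 5p sequence, were all lower within both replicate numbers, by -1.91, -1.45 and -0.52. Their kept probe sets were all numbered on another chromosome. The 5 genes with the miR-548f-3p sequence were spread from 4.35 to 12.48 in level and from -0.96 (MIR548F1) to 2.27 (MIR548F3) in difference. Between them lay MIR548F2 at 0.10, MIR548F4 at -0.21 and MIR548F5 at -0.93, and 3 of the 5 were lower within both replicate numbers. MIR548F1 and MIR548F3, the brightest, were read through probe sets numbered on another chromosome, and MIR548F2, MIR548F4 and MIR548F5 through own-chromosome ones. On its own-chromosome probe set MIR548F1 had a mean level of 4.02 and a difference of -0.47, and MIR548F3 had 3.65 and -0.43. MIR548O and MIR548O2, which have the same 3p sequence, stood at mean levels of 3.43 and 7.61. Both were lower within both numbers, with differences of -0.31 and -0.54, and MIR548O2 alone was read through a probe set numbered elsewhere. The 4 genes with an AAAGUAA seed, MIR548B, MIR548J, MIR548W and MIR548Y, were spread from -0.10 to 0.91, and 1 of them was lower within both replicate numbers.

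For 14 genes the table held a probe set of each kind, 1 numbered on the gene's own chromosome and 1 or more elsewhere, which allows both to be read under 1 symbol. The probe set numbered elsewhere was the brighter in all 14, by 1.83 to 9.56 (median 6.37, log2). Its difference between PRSS8 and control was the lower in 11 of the 14. The median difference was -0.79 for the probe sets numbered elsewhere and -0.18 for those on the own chromosome, and in 6 genes the 2 had opposite signs.

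**Figure D2:**
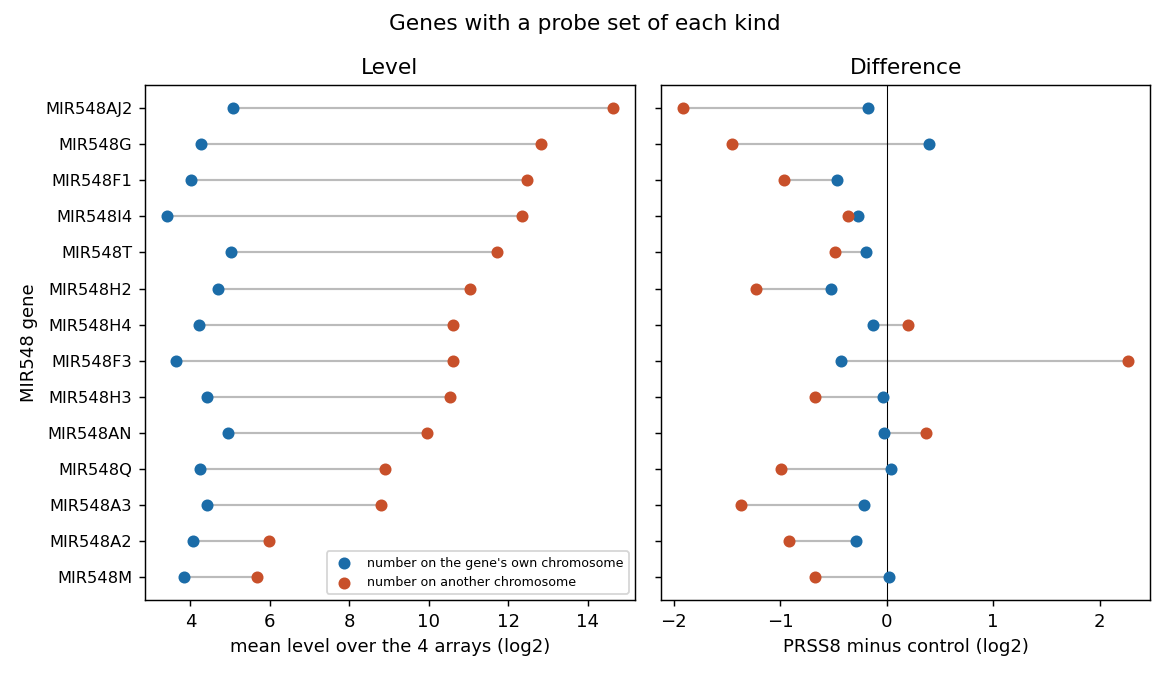
The 14 MIR548 genes with a probe set numbered on the gene's own chromosome (blue) and one numbered on another (red, the brightest of these), with mean level over 4 arrays at left and the difference PRSS8 minus control at right, both log2. Every red point lies right of its blue partner at left, and at right the red points reach from -1.91 to 2.27 while the blue ones stay between -0.52 and 0.39.

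Several of the largest decreases were smaller or absent in the other probe set. The own-chromosome probe set of MIR548AJ2 stood at 5.54 and 4.77 on the control arrays and 5.11 and 4.86 on the PRSS8 arrays, a difference of -0.17 in place of -1.91. That of MIR548G stood at 3.78 and 4.35 against 3.78 and 5.14, highest on PRSS8 replicate 2, a difference of 0.39 in place of -1.45. For MIR548Q it was 0.04 in place of -0.99, and for MIR548A3 -0.21 in place of -1.37. MIR548F1 kept its direction, with 4.12 and 4.38 against 3.53 and 4.03, a difference of -0.47 in place of -0.96. So did MIR548H2, with -0.64 within replicate 1, -0.40 within replicate 2 and groups that did not overlap, a difference of -0.52 in place of -1.23. MIR548F3 turned from 2.27 to -0.43, and was lower within each number (-0.32 and -0.54). MIR548AI, MIR548D2 and MIR548D1 were among 9 genes with no own-chromosome probe set of 1 symbol.

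Read through the own-chromosome probe sets alone, 33 genes could be described. Their median difference was -0.21, 20 of the 33 (60.6%) were lower within both replicate numbers, 5 were higher within both, and in 12 (36.4%) both PRSS8 arrays stood below both controls. None was 1.5-fold lower within both numbers, but only 0.156% of all genes and 8 of 16623 genes at a level under 6 were. Among all genes at a level under 6, 27.8% were lower within both numbers and 6.73% had both PRSS8 arrays below both controls, and among other microRNA genes 28.3% and 9.86%. The 25 probe sets numbered elsewhere had a median difference of -0.57, and 17 of them were lower within both numbers.

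Among the dim genes MIR548F5 had the most negative difference, at 4.52 and 5.10 on the control arrays against 4.04 and 3.73 (-0.93, SE 0.26). MIR548K stood at 4.71 and 4.96 against 4.19 and 4.35 (-0.57, SE 0.19), and MIR548H1 at 3.67 and 3.87 against 3.23 and 3.44 (-0.43, SE 0.15). These 3 were chosen after their values were seen, and in each the groups did not overlap. MIR548P, MIR548U, MIR548I3 and MIR548O were likewise below both controls on both PRSS8 arrays, with differences of -0.77, -0.41, -0.26 and -0.31. MIR548F4, MIR548L, MIR548A1, MIR548I1 and MIR548Y were lower within both numbers with overlapping groups, by -0.32 to -0.10. MIR548B stood at 3.47 and 3.54 against 3.63 and 3.61 and MIR548J at 2.98 and 2.95 against 3.11 and 2.99, and these were the only members with both PRSS8 arrays above both controls. MIR548Z and MIR548F2 were also higher within both numbers, by 0.13 and 0.10, with overlapping groups. Next to the median level of 3.74, MIR548I2 stood at 3.71 and 3.87 against 3.57 and 3.83 (-0.09, SE 0.16) and MIR548E at 3.74 and 3.42 against 3.54 and 3.63 (0.0007, SE 0.16), with overlapping groups. Of the 42 genes 7 lay below the median level of all probe sets, and detection above background could not be computed from these values.

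Many microRNA genes lie inside a longer gene and are transcribed with it. Of the 33 own-chromosome probe sets, 12 belonged to a MIR548 gene inside a protein-coding gene listed on the same strand (RefSeq, GRCh38.p14). Of these host genes 11 had a value in the data used here. Their differences ran from -0.25 to 0.33 and those of the MIR548 probe sets from -0.93 to 0.11, and 7 of the 11 pairs had the same sign. Genes were not counted where a strand was missing. Protein-coding genes around such members differed by -0.46 (SYNE2, around MIR548H1), 0.23 (RADX, around MIR548AN), 0.05 (HS3ST3A1, around MIR548H3) and 0.08 (RASSF3, around MIR548Z). MIR548F5 lies in DMD, the dystrophin gene, which differed by -0.09 at a level of 3.41. MIR548K lies in PPFIA1, a scaffold protein of cell adhesion sites, which differed by -0.10 at a level of 6.81. MIR548E lies in SHOC2, a scaffold of RAS and RAF signalling, which differed by 0.33 at a level of 8.76. Only 3 of the 11 hosts reached a level of 6.

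**Figure D3:**
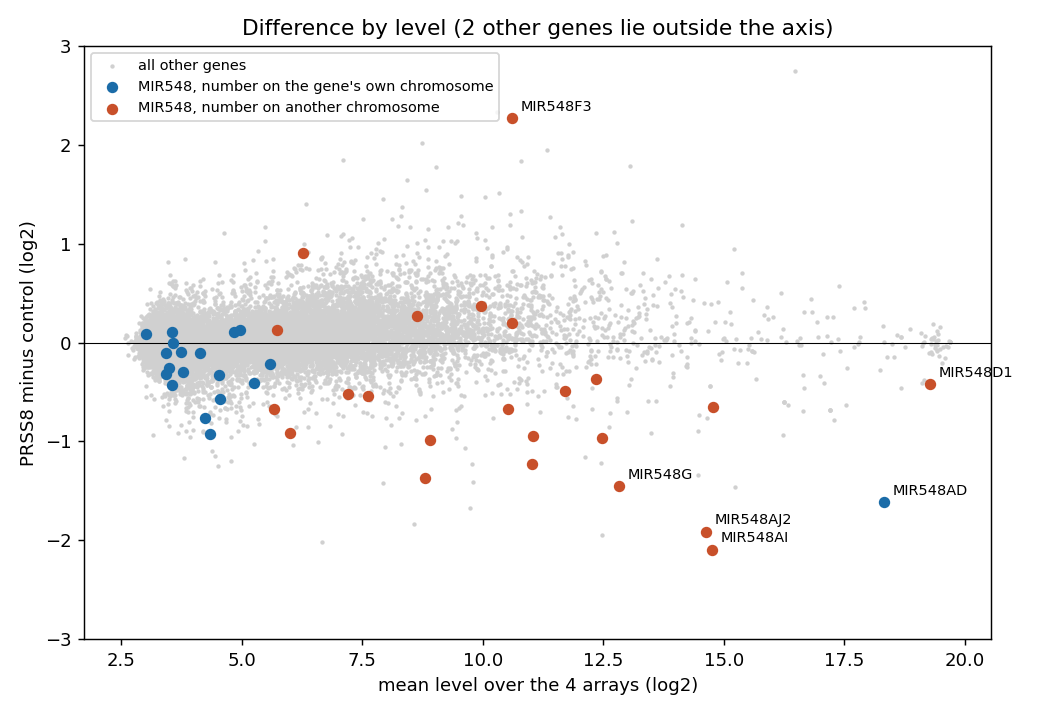
Mean level over 4 arrays (x, log2) against the difference PRSS8 minus control (y, log2) for the 42 MIR548 genes, blue for probe sets numbered on the own chromosome and red for those numbered elsewhere, over all other genes in grey. The red points fan out with level, down to -2.09 for MIR548AI at a level of 14.75, while most grey points stay near 0.

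The median decrease was larger in the brighter genes. The median difference was -0.10 for the 9 genes under a level of 4, -0.37 for 12 genes from 4 to 6, -0.52 for 7 genes from 6 to 10, -0.67 for 9 genes from 10 to 14 and -1.61 for the 5 genes at 14 or more. All 5 of the brightest genes were lower within both replicate numbers, where 17.6% of all genes at 14 or more were. Of the U6 spliceosomal RNA genes (RNU6) at that level 17 of 19 (89.5%) were, and of the small nucleolar RNA genes 1 of 37 (2.7%). Of these 37, 32 were lower within replicate 1 but only 2 within replicate 2. Their median level was 18.69, where the highest value of an array was 19.44 to 19.93. In the 3 upper ranges the medians of the MIR548 genes were -0.39, -0.57 and -0.53 within replicate 1. Within replicate 2 they were -0.33, -0.56 and -2.69, so the step at 14 was in replicate 2. In all genes the medians of the difference at the same 5 levels were -0.02, -0.01, 0.10, 0.18 and 0.01. Across the 42 genes Pearson's r between level and difference was -0.39 (Spearman's rho -0.45), against 0.24 (rho 0.22) across all genes. Level and kind of probe set nearly coincided. Within the 19 genes on the own chromosome r was -0.74 and rho -0.28, and within the 23 numbered elsewhere r was -0.30 and rho -0.32. Of those 19 genes MIR548AD, at a level of 18.32 with -1.61, stood far from the other 18, at 5.59 or below. Pearson's r is sensitive to such a single point, and it was not computed without MIR548AD. These are descriptions over genes measured on the same 4 arrays, and probe sets of similar sequence are not independent.

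**Figure D4:**
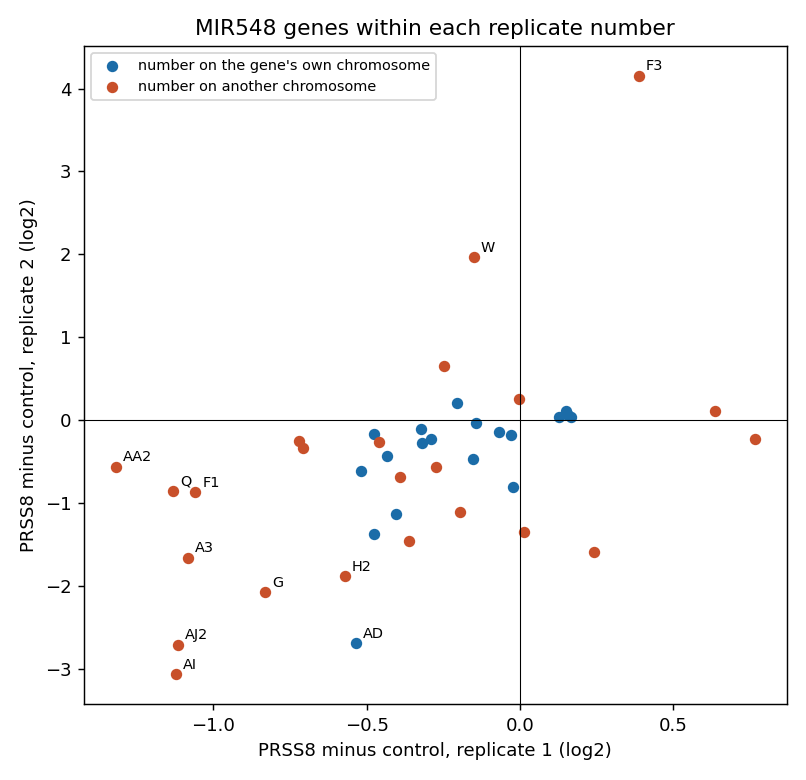
Difference PRSS8 minus control within replicate 1 (x) and within replicate 2 (y), both log2, for the 42 MIR548 genes, blue for probe sets numbered on the own chromosome and red for those numbered elsewhere, with the outermost genes named without the MIR548 prefix. Most points lie in the lower left part, and MIR548AI (-1.12, -3.07), MIR548AJ2 (-1.12, -2.71) and MIR548AD (-0.53, -2.69) differ far more within replicate 2.

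Both replicate numbers showed the decrease, to a different extent. Within replicate 1, 33 of the 42 genes were lower with PRSS8, where 50.4% of all genes were. Within replicate 2, 32 were, where 48.0% of all genes were. Across the genes the differences of the 2 numbers had a Pearson's r of 0.52 (Spearman's rho 0.60), against 0.17 (rho 0.05) across all genes. The 5 genes at a level of 14 or more had a median difference of -0.53 within replicate 1 and of -2.69 within replicate 2. All 5 had the lower difference within replicate 2, where 39 of 170 genes at that level did. PRSS8 replicate 2 was the lowest of the 4 arrays in 19 of the 42 genes, and in 12.8% of all genes. At a level of 10 or more it was the lowest in 9 of 14, and the share over all genes at that level was not computed. The family also differed by number: at a level of 10 or more, the replicate 2 arrays lay below the replicate 1 arrays by a median difference of -0.92, where it was 0.0013 over all genes at that level.

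Other small RNA genes gave the comparison at like levels. Only 6 other microRNA genes reached a level of 10, and 3 of them were lower within both replicate numbers, with a median difference of -0.19. The RNU6 genes, copies of the U6 spliceosomal RNA gene, were lower within both numbers in 48 of 79 (60.8%), with a median difference of -0.37. At a level of 10 or more 29 of 34 RNU6 genes were lower within both, with a median difference of -0.60, but their replicate 2 arrays lay above the replicate 1 arrays by a median of 1.34. Only 4 of the 79 (5.06%) had both PRSS8 arrays below both controls. Of 237 small nucleolar RNA genes, which guide chemical changes in other RNAs, 60 (25.3%) were lower within both, close to the 24.5% of all genes. Among all genes at a level of 10 or more, 13.6% were lower within both numbers and 39.2% higher within both, while of the 14 MIR548 genes at that level 11 were lower and 1 was higher.

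**Figure D5:**
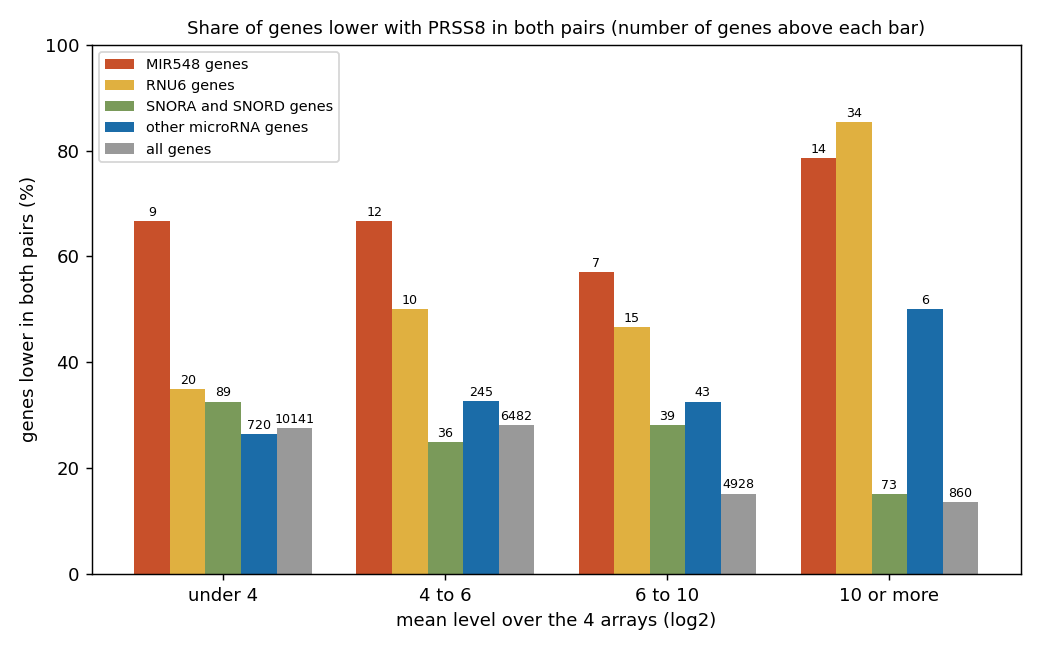
Share of genes lower with PRSS8 within both replicate numbers (y, %), by mean level (x, log2), for MIR548 genes, RNU6 genes, small nucleolar RNA genes, other microRNA genes and all genes, with the number of genes above each bar. MIR548 bars lie above those of all genes in every level range, and at 10 or more the RNU6 bar (85.3%) is the tallest.

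The genes of the enzymes that make and use microRNAs were described from a list. Of 29 listed genes of microRNA processing and silencing 22 were among the genes with a probe set of 1 symbol, the only kind used here. The Argonaute genes AGO1, AGO2, AGO3 and AGO4 were not, nor were DGCR8, DDX5 and SND1. This does not show that the array has no probes for them. None of the 22 passed the test in limma, which no gene of the whole table, PRSS8 included, passed. Their median difference was -0.01. Lower within both replicate numbers were 7 and higher 3 (24.5% and 26.0% of all genes). None was 1.5-fold lower within both, but only 0.156% of all genes were. The 4 at the highest level were CNOT1, the scaffold of the deadenylase complex (-0.09, SE 1.18), RAN, the GTPase of nuclear transport (0.08, SE 0.74), the nuclear exonuclease XRN2 (-0.02, SE 1.18) and the RNA-editing enzyme ADAR (-0.20, SE 0.73). DROSHA differed by -0.12 (SE 0.46), DICER1 by -0.02 (SE 1.17) and XPO5, which exports hairpins from the nucleus, by 0.15 (SE 0.55); these 3 are given for their roles. TNRC6B, a partner of Argonaute, had the most negative difference (-0.33, SE 0.86), with -0.34 within replicate 1 and -0.33 within replicate 2.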

How the data were processed

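The authors deposited log2 expression values per probe set for 4 arrays, for which RMA and version 1.3.1 of Affymetrix Expression Console are named, per the submitters' processing notes. The genome build, the annotation and whether the arrays were normalized together are not given in the sources used here. Of 70523 probe sets, 2995 without a gene-level identifier were left out. Of the other 67528, 23781 had 1 symbol in GEO's platform annotation, 1543 several and 42204 no entry. Current symbols came from the Entrez identifier for 21497 and from an older symbol for 306, and the brightest probe set stood for each of 22411 genes. No scanner files were used, and precision is limited by having 4 arrays.

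The PRSS8 and control arrays were fitted with limma 3.58.1 under R 4.3.3 (lmFit, eBayes with trend, two-sided, Benjamini-Hochberg over all genes, threshold 0.05). SE is that fit's moderated error, which includes the difference between replicate numbers. A replicate number was counted as lower or higher by the sign of PRSS8 minus control within it. The code was tested on simulated data. Members, lists and the rule for named genes (the 8 brightest, 8 most negative and 6 most positive members, those with groups 1.5-fold apart and those next to the median level) were chosen with earlier results of these data known. The check of chromosomes was added after seeing the values. P-values measure only the spread between these arrays.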

Additional observations from a re-analysis of the deposited data

How the results depend on the processing

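Under quantile normalization, median centring and cyclic loess the median difference of the MIR548 genes was -0.46, -0.39 and -0.41, and none of the 19 named members changed sign. The median was -0.33 when all probe sets of a gene were averaged, -0.52 over the 35 genes at or above the median level and -0.21 with own-chromosome probe sets, an alternative chosen after seeing the data. With an array left out it ran from -0.62 to -0.17, the count of genes with both PRSS8 arrays below both controls from 22 to 27, and 8 of the 19 named members changed sign. With an array left out the replicate numbers are unbalanced, and limma assumes that the lone array varies like the others. Within 1 replicate number, 32 to 33 genes were lower and 9 to 10 higher. At 1.5-fold within both numbers, 6 were lower and 0 higher. Over all genes limma called 0 to 62 with an array left out, where it called 62 without control replicate 1 and 8 without control replicate 2, and 0 in every other setting run. With the replicate block, which leaves the median at -0.42, it called 0, and 647 and 527 genes had an unadjusted p under 0.05 (higher and lower). Deviations of the replicate 1 arrays from their group means correlated at 0.91 across genes between the groups, but with 2 numbers this does not show that they pair the samples. Detection could not be computed, so small differences at low levels do not show that a gene was unchanged.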

Other observations

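A further 7 probe sets carried a MIR548 symbol beside another symbol and were outside the comparisons. The one annotated to MIR548AA1 and MIR548D1, on the chromosome of both genes, stood at 4.21 and 4.23 on the control arrays and at 3.83 and 3.56 on the PRSS8 arrays, while the probe set of MIR548D1 alone, numbered elsewhere, had a mean level of 19.27. The one annotated to MIR548AA2 and MIR548D2 stood at 5.65 and 5.06 against 5.45 and 4.66, where the probe sets of MIR548AA2 alone and MIR548D2 alone, both numbered elsewhere, had mean levels of 11.04 and 14.78. The one annotated to DPY19L1 and MIR548N was the brightest of these, at 9.68 and 7.58 against 8.54 and 7.40.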
